A study of Mus musculus with 15 samples.

Results

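Myc, Mycn, Nras, Braf, Nf1, Pik3ca and Met are 7 genes of growth signalling that are altered in many cancers. They were chosen by gene symbol. Each was found as 1 transcript cluster, the array's unit of measurement for a gene, so the members are 7 of 35556 clusters, or 7 of 22008 genes with a symbol. Their RNA was measured in whole primary mouse mammary tumours on Affymetrix Mouse Gene 1.0 ST arrays, with 3 tumours of each of 5 types and 15 in all. EO771.LMB (metastatic) and EO771 (non-metastatic) tumours grew in C57Bl/6 mice. 4T1.2 (metastatic), 67NR (non-metastatic) and EMT6.5 (metastatic) tumours grew in Balb/c mice. All hosts were female, 6 to 8 weeks old by the labels, and carried the tumour in the inguinal mammary fat pad. EO771.LMB was isolated from a lung nodule of a mouse bearing an EO771 tumour, and 67NR and 4T1.2 also share their origin, so each pair stands for a single starting tumour. The EO771 pair (EO771.LMB and EO771) and the 4T1 pair (4T1.2 and 67NR) differ in host strain as well as in tumour line, and these cannot be told apart.

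As background, growth factor receptors such as Met, the receptor for hepatocyte growth factor, switch on Ras proteins. Ras passes the signal to Raf kinases such as Braf and on through MEK to ERK, and also to phosphoinositide 3-kinase (PI3K), whose catalytic subunit p110 alpha is encoded by Pik3ca. Nf1 encodes neurofibromin, which turns Ras off. Myc and Mycn encode transcription factors that pair with Max and drive genes of ribosome production, nucleotide synthesis and cell growth. In whole tumours, fewer cells of a type and less RNA per cell cannot be told apart.

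The values are log2 signals as deposited, between 3.26 and 13.98, and the medians of the arrays lay between 6.32 and 6.44. Without detection values, weak and absent RNA cannot be distinguished. Signals of different clusters are not compared with each other. Tests are from limma over all clusters and all 15 tumours, adjusted by the Benjamini-Hochberg method, and a cluster was called at an adjusted p under 0.05. The number of arrays limits the precision. Of the epithelial genes, Krt8 had means of 9.83 to 10.65 over the types and Krt18 of 6.59 to 10.37. Epcam had means of 5.55 to 6.13 and Cdh1 of 5.68 to 6.65. Each range is read across the types, not against another gene. In EMT6.5 tumours 1 and 3 the skeletal muscle gene Acta1 had signals of 8.91 and 9.54, against 5.85 in EMT6.5 tumour 2. Results on EMT6.5 are therefore also given without both tumours where a call changed. That leaves 1 EMT6.5 tumour, so a call can be lost through the smaller group alone.

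Myc, Met and Braf stood higher in tumours of the EO771 pair than in those of the 4T1 pair, and their 6 tumours of one pair did not overlap with the 6 of the other. Nras and Pik3ca were also higher, by less. Nf1 and Mycn were not called. In all, 5 of 7 members were higher and none was lower. Over all clusters 38.4% were called in either direction, with 19% higher and 19.3% lower, so a call in this comparison is common. The count was 3 of 7 without 67NR replicate 3, 4T1.2 replicate 1 or EO771.LMB replicate 1 or 2. Groups did not overlap for 3 of 7 members, against 18.5% of clusters. Between 4T1.2 and 67NR, Myc was higher and Braf was lower in 4T1.2. Between EO771.LMB and EO771, none of the 7 was called. EMT6.5 tumours differed from 67NR in 1 of 7 members (18% of clusters called) and from 4T1.2 in 4 (16.3%), from EO771 in 4 (23.7%) and from EO771.LMB in 4 (24.3%).

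**Figure D1:**
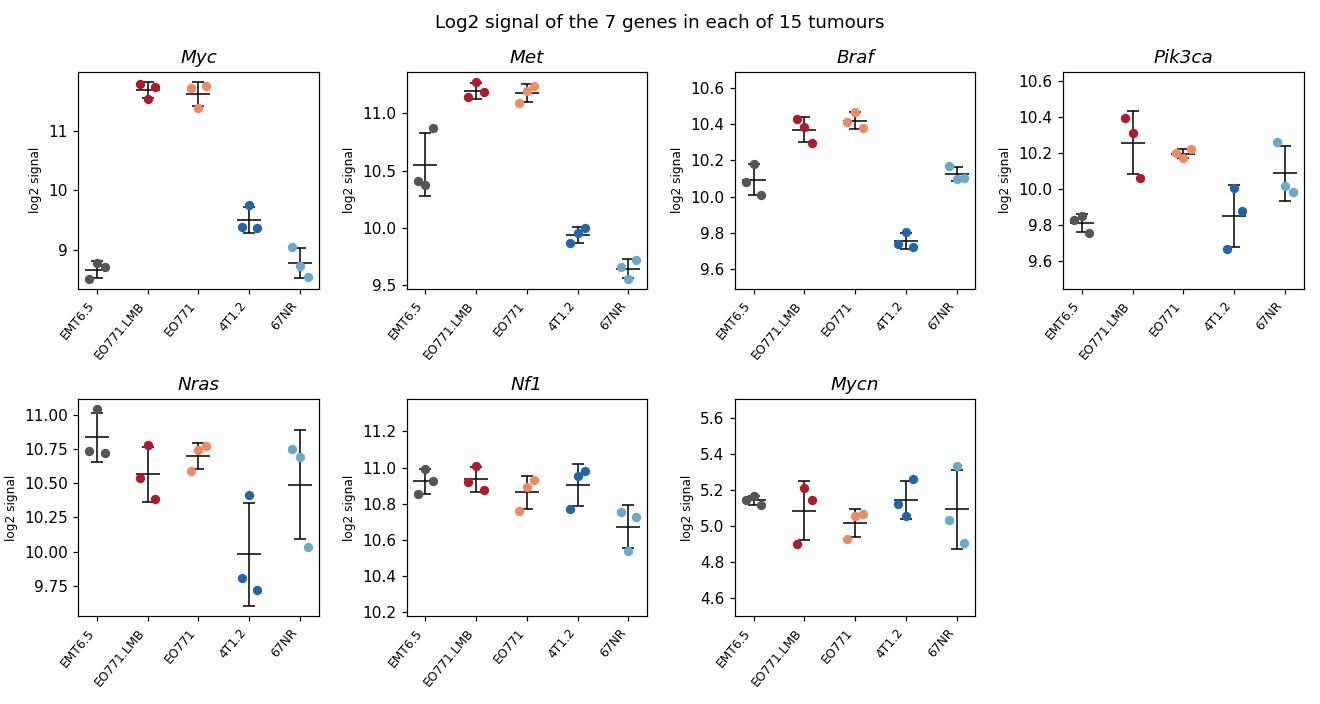
Log2 signal of each of the 7 genes in 15 tumours by type, 1 point per tumour, with the mean (horizontal line) and SD (bar, n = 3); each panel has its own axis. Myc, Met and Braf are high in all 6 tumours of EO771.LMB and EO771, and Nf1 and Mycn vary little between types.

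Myc, the transcription factor, had log2 signals of 11.79, 11.53 and 11.75 in EO771.LMB and 11.73, 11.40 and 11.77 in EO771 tumours. It had 9.38, 9.75 and 9.37 in 4T1.2 and 9.04, 8.72 and 8.54 in 67NR tumours. In EMT6.5 tumours it had 8.51, 8.78 and 8.70. Every tumour of the EO771 pair lay above every other tumour. The EO771 pair exceeded the 4T1 pair by 2.52 (standard error 0.11, adjusted p = 1.6e-10 from limma), or 5.75-fold. Myc in 4T1.2 also exceeded that in 67NR tumours, by 0.73 (standard error 0.15, adjusted p = 0.0036), and the 3 tumours of each type did not overlap. EO771.LMB differed from EO771 by 0.06 (standard error 0.15, adjusted p = 0.97). By level the order was EO771.LMB, EO771, 4T1.2, 67NR and EMT6.5, in which EO771.LMB and EO771 did not differ beyond their spread, nor did EMT6.5 and 67NR (log2 difference -0.11, adjusted p = 0.72). The change of the 4T1 pair exceeded that of the EO771 pair by 0.68, a difference that was not called (adjusted p = 0.066). It was called without 67NR replicate 1 (0.81, adjusted p = 0.03) and without EO771 replicate 2 (0.79, adjusted p = 0.04).

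Mycn, the relative of Myc known from neuroblastoma, had signals of 4.90 to 5.21 in EO771.LMB, 4.93 to 5.07 in EO771, 5.05 to 5.26 in 4T1.2, 4.91 to 5.33 in 67NR and 5.12 to 5.17 in EMT6.5 tumours. These values lie near the low end of the array, and all types overlapped with at least 1 other. The EO771 pair minus the 4T1 pair gave -0.07 (standard error 0.08, adjusted p = 0.58), and no other comparison of types called Mycn. Mycl1, the third Myc gene, was named after its values were seen because it completes the family, and it gave -0.05 (adjusted p = 0.68).

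Met had signals of 11.14, 11.27 and 11.18 in EO771.LMB and 11.09, 11.20 and 11.24 in EO771 tumours, against 9.87, 9.96 and 9.999 in 4T1.2 and 9.66, 9.56 and 9.72 in 67NR tumours. EMT6.5 tumours had 10.41, 10.37 and 10.87 and lay between the pairs, with no overlap. The EO771 pair exceeded the 4T1 pair by 1.39 (standard error 0.09, adjusted p = 8.3e-09), or 2.63-fold. EMT6.5 differed from EO771 by -0.62 (adjusted p = 0.0016) and from 4T1.2 by 0.61 (adjusted p = 0.0027). The last difference was 0.43 without EMT6.5 tumours 1 and 3, with 1 EMT6.5 tumour left. 4T1.2 exceeded 67NR by 0.29 (standard error 0.12, adjusted p = 0.12), with no overlap of the 3 tumours of each type. That difference was called without EMT6.5 replicate 3 (adjusted p = 0.038). By level the order was EO771.LMB, EO771, EMT6.5, 4T1.2 and 67NR, in which EO771.LMB and EO771 did not differ beyond their spread (0.02, adjusted p = 0.98), and 4T1.2 and 67NR were not called apart. In 4T1.2 against 67NR, 4 of 7 members did not overlap, against 32% of clusters.

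The starts of Met and Nras are shown because their windows hold the E-box CACGTG, the sequence that Myc binds with Max. Whether Myc acts on Met or Nras was not tested. RefSeq promoter windows, from 250 bases before to 50 after the start, were searched on both strands for CACGTG, for TGAGTCA, the site of AP-1 factors, and for CCGGAAG, a site of ETS factors. The AP-1 and ETS factors are targets of ERK signalling. Windows were found for Met, Braf, Nras, Pik3ca, Nf1 and Mycn, 6 of 7 members. CACGTG occurred in 2 of them (Met and Nras) and in 7.15% of all 32851 windows. TGAGTCA occurred in 2 (Met and Pik3ca) and in 5.2% of all windows, and CCGGAAG in 2 (Pik3ca and Nf1) and in 8.86%. The Met window (GRCm38.p6, chr6:17463707-17464006, plus strand) and the Nras window (GRCm38.p6, chr3:103058035-103058334, plus strand) are given with these motifs in capitals, which do not overlap. A match is a description of the letters, not a shown binding site.
Met: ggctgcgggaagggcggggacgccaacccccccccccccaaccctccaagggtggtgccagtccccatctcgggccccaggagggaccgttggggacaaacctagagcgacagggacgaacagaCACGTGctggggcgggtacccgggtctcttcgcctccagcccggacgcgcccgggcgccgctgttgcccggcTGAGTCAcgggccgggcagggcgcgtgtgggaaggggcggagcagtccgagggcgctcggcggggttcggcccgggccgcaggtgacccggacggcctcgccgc
Nras: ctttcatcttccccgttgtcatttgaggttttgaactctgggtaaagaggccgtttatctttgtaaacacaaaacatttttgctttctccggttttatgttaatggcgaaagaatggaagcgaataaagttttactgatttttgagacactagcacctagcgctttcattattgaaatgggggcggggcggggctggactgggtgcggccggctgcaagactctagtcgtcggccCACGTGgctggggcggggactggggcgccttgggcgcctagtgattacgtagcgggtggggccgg

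Nras, one of the Ras proteins, was more variable within types than the other members, with a standard error of 0.20 for a difference between 2 types against 0.08 to 0.15. Its signals were 10.54, 10.78 and 10.38 in EO771.LMB, 10.59, 10.74 and 10.77 in EO771, 9.81, 10.41 and 9.72 in 4T1.2, 10.75, 10.69 and 10.03 in 67NR and 10.74, 11.04 and 10.72 in EMT6.5 tumours. Only 4T1.2 tumours 1 and 3 lay below every tumour of the other types. The EO771 pair exceeded the 4T1 pair by 0.40 (standard error 0.14, adjusted p = 0.042). This call was lost without 67NR replicate 3, 4T1.2 replicate 1 or 3, EO771.LMB replicate 1 or 2, or any EO771 replicate, with 0.28 to 0.43 and adjusted p of 0.051 to 0.10. 4T1.2 minus 67NR gave -0.51 (standard error 0.20, adjusted p = 0.11). Without 67NR replicate 3 or 4T1.2 replicate 2 it was called, at -0.74 (adjusted p = 0.018) and -0.73 (adjusted p = 0.023). EMT6.5 exceeded 4T1.2 by 0.86 (adjusted p = 0.0096). By level the order was EMT6.5, EO771, EO771.LMB, 67NR and 4T1.2, and no neighbours in it differed beyond their spread.

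Braf, the Raf kinase, had signals of 10.43, 10.38 and 10.30 in EO771.LMB and 10.41, 10.47 and 10.38 in EO771 tumours, against 9.74, 9.80 and 9.72 in 4T1.2 and 10.17, 10.10 and 10.10 in 67NR tumours. EMT6.5 tumours had 10.08, 10.18 and 10.01. The 4T1.2 tumours were lowest and overlapped with no other type. Braf in 4T1.2 was below that in 67NR (log2 difference -0.37, standard error 0.08, adjusted p = 0.0062, but 0.056 when only these 6 tumours were fitted). In the EO771 pair it exceeded the 4T1 pair by 0.46 (standard error 0.06, adjusted p = 2.1e-05). EO771.LMB minus EO771 gave -0.05 (adjusted p = 0.94). With Myc, Braf was 1 of 2 members called between 4T1.2 and 67NR, 1 in each direction, where 17.8% of clusters were called (8.69% higher and 9.12% lower). By level the order was EO771, EO771.LMB, 67NR, EMT6.5 and 4T1.2, in which EO771.LMB and EO771 did not differ beyond their spread, nor did EMT6.5 and 67NR (-0.03, adjusted p = 0.85). EO771.LMB exceeded 67NR by 0.25 (adjusted p = 0.04), a call that was lost without any one of the 67NR or EO771 replicates, EO771.LMB replicate 1 or 2 or EMT6.5 replicate 1, with 0.22 to 0.27 and adjusted p of 0.051 to 0.13. After quantile normalization it was 0.14 (adjusted p = 0.23). EMT6.5 exceeded 4T1.2 by 0.34 (adjusted p = 0.012), but not without EMT6.5 replicate 2 (0.29, adjusted p = 0.058). Against EO771.LMB, Braf in EMT6.5 was lower (log2 difference -0.28, adjusted p = 0.024). That call was lost without EO771.LMB replicate 1 or 2 or EMT6.5 replicate 1 or 3 (adjusted p up to 0.093). The Braf changes of the 4T1 and EO771 pairs differed by -0.32, which was not called (adjusted p = 0.11).

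Pik3ca had signals of 10.40, 10.31 and 10.06 in EO771.LMB, 10.20, 10.17 and 10.22 in EO771, 9.67, 10.01 and 9.88 in 4T1.2, 10.26, 10.02 and 9.98 in 67NR and 9.83, 9.85 and 9.76 in EMT6.5 tumours. The pairs overlapped, through 67NR tumour 1. By level the order was EO771.LMB, EO771, 67NR, 4T1.2 and EMT6.5, and no neighbours in it differed beyond their spread. The EO771 pair exceeded the 4T1 pair by 0.26 (standard error 0.08, adjusted p = 0.023). This call was lost without 67NR replicate 2 or 3, 4T1.2 replicate 1, or EO771.LMB replicate 1 or 2, with 0.21 to 0.24 and adjusted p of 0.05 to 0.06. Against EO771, Pik3ca in EMT6.5 was lower (log2 difference -0.39, adjusted p = 0.026). That call was lost without any one of the EO771 replicates or EMT6.5 replicate 1 or 3 (adjusted p up to 0.08). EMT6.5 was also lower than EO771.LMB (log2 difference -0.44, adjusted p = 0.011), but not when EO771.LMB replicate 1 was left out (-0.38, adjusted p = 0.054). Without EMT6.5 tumours 1 and 3, with 1 EMT6.5 tumour left, the difference from EO771.LMB was -0.41.

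Nf1, the brake on Ras, stayed within a narrow range, with signals of 10.87 to 11.01 in EO771.LMB, 10.76 to 10.93 in EO771, 10.77 to 10.98 in 4T1.2, 10.54 to 10.75 in 67NR and 10.85 to 10.99 in EMT6.5 tumours. The 67NR tumours were lowest and did not overlap with any other type, but no difference between 2 types was called. 67NR minus the mean of the 5 types gave -0.19 (adjusted p = 0.041, 24.8% of clusters called there), a call that was lost without any one of the 67NR replicates (adjusted p of 0.06 to 0.24). It was also lost without replicate 2 or 3 of 4T1.2, EO771 or EMT6.5 or replicate 1 or 2 of EO771.LMB (adjusted p of 0.054 to 0.063). Leaving out EMT6.5 tumours 1 and 3 together lost it too, with 1 EMT6.5 tumour left. After quantile normalization the difference was -0.12 (adjusted p = 0.20). 4T1.2 minus 67NR gave 0.23 (adjusted p = 0.13) and the EO771 pair minus the 4T1 pair 0.11 (standard error 0.07, adjusted p = 0.24). Over the 5 types, a test of any difference called Myc, Met, Braf, Pik3ca (adjusted p = 0.015) and Nras (adjusted p = 0.026), 5 of 7 members, where 43.1% of clusters were called. The Nras call was lost without 4T1.2 replicate 1 (adjusted p = 0.11), 4T1.2 replicate 3 (adjusted p = 0.12) or EMT6.5 replicate 2 (adjusted p = 0.052). That of Pik3ca was lost without EMT6.5 tumours 1 and 3 together, which leaves 1 EMT6.5 tumour.

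**Figure D2:**
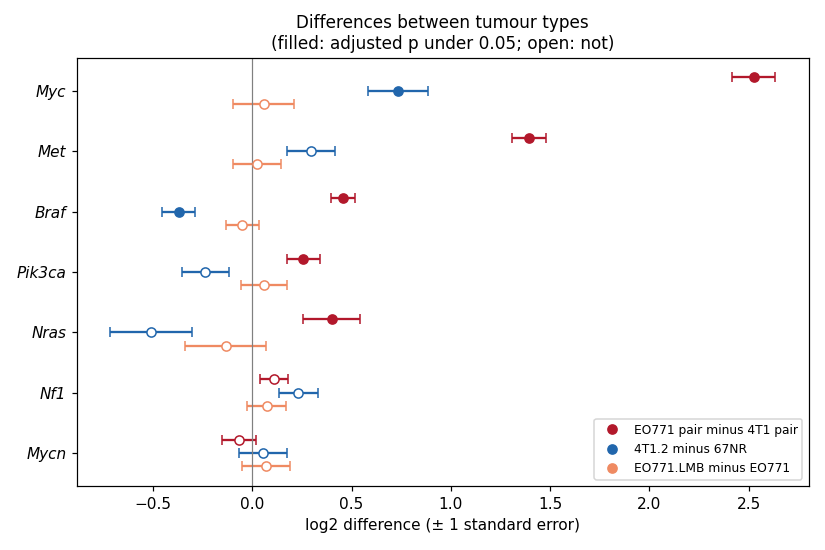
Log2 differences of the 7 genes with bars of 1 standard error; positive values are higher in the first-named type or pair, and filled points have an adjusted p under 0.05. The Myc difference between the pairs is 2.52 and that of Met is 1.39, and all 7 points of EO771.LMB minus EO771 are open.

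Between EO771.LMB and EO771 the members' differences ran from -0.13 (Nras) to 0.07 (Nf1), and 0 of 7 had even an unadjusted p under 0.05 in limma. Only 7 of 35556 clusters (0.0197%) were called there, and no gene of the 9 pathway lists, where 0.0273% of genes were lower. Groups did not overlap for 0 of 7 members, against 14.7% of clusters. For no member did the changes of the pairs differ by the test (0 of 7 called in limma, 2 of 7 at an unadjusted p under 0.05, 10.2% of clusters called).

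The closest relatives of the members did not all move with them. Values of Hras1, Rras, Rras2, Mras, Araf, Pik3cd and Pik3r2 are given beside the members and were chosen after they were seen. Among the Ras genes, Hras1 (0.39, adjusted p = 0.011) and Rras2 (0.36, adjusted p = 0.0097) were higher in the EO771 pair, whereas Rras gave -0.29 (adjusted p = 0.085) and Mras -0.20 (adjusted p = 0.17). Araf, a relative of Braf, gave -0.14 (adjusted p = 0.15). EMT6.5 tumours stood apart in Mras, with a mean of 8.98 against the mean of the 5 types (difference 0.78, adjusted p = 4.5e-05, 19.9% of clusters called there).

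Of 9 PI3K subunits, 2 were higher in the EO771 pair and 5 were lower, with a median of -0.31. Over all genes with a symbol, 23.6% were higher and 19.5% lower, with a median of -0.02. Beside Pik3ca, Pik3r2, a regulatory subunit, was higher by 0.22 (adjusted p = 0.022). Only 1 subunit was higher without 67NR replicate 2 or 3, 4T1.2 replicate 1, EO771.LMB replicate 1 or 2, or EO771 replicate 2 or 3. Pik3r1, which encodes the regulatory subunit p85 alpha that binds p110 alpha, was lower by a log2 difference of -1.05 (adjusted p = 9.6e-08), and the subunits Pik3cg (-0.72), Pik3r5 (-0.59), Pik3r6 (-0.51) and Pik3r3 (-0.31) were lower too. Between 4T1.2 and 67NR, 5 of the 9 were lower and none was higher, where 9.78% of genes were higher and 11% lower. Pik3r1 had signals of 9.79, 10.04 and 9.76 in 4T1.2 against 11.48, 11.55 and 11.43 in 67NR (log2 difference -1.62, standard error 0.12, adjusted p = 1.5e-07). Pik3cb, which encodes p110 beta, followed with -0.89 (adjusted p = 1.4e-05), and Pik3cd gave -0.21 (adjusted p = 0.63). For Pik3r1 the changes of the 4T1 and EO771 pairs differed by -1.60 (adjusted p = 1.4e-05). EMT6.5 tumours were high in Pik3r3, with 7.87, 8.13 and 7.99.

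**Figure D3:**
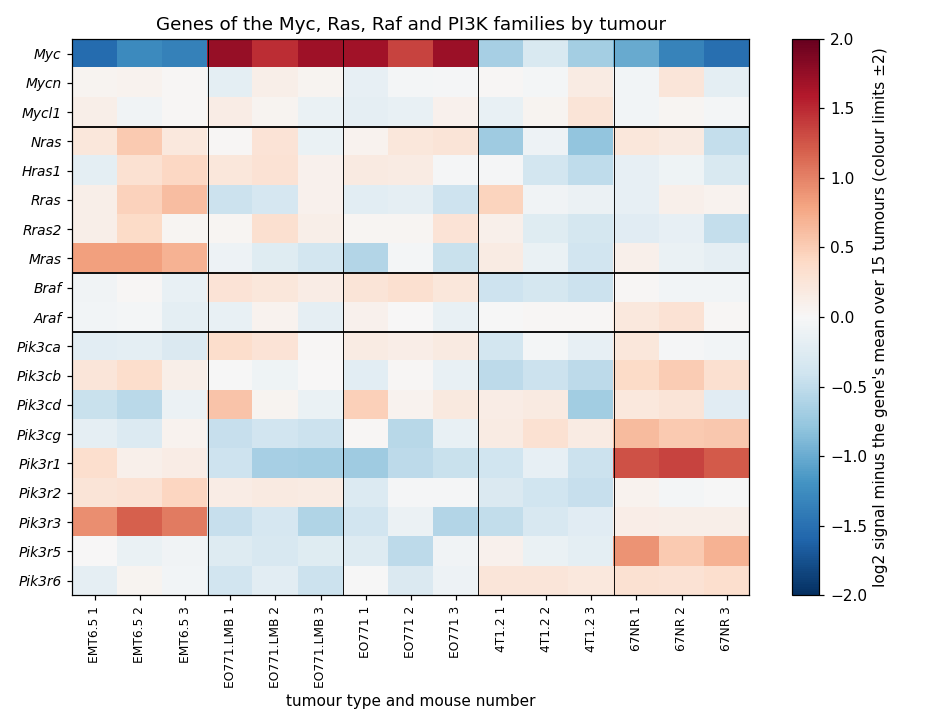
Log2 signal minus the gene's own mean over 15 tumours for genes of the Myc, Ras, Raf and PI3K families, with colour limits of -2 and 2. Columns are tumours by type. Myc is red in all 6 tumours of the EO771 pair, and Pik3r1 is red in the 67NR tumours.

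Known Myc target genes were mostly higher in the EO771 pair. Of 50 listed genes, 44 were higher, 1 (Tert, the catalytic subunit of telomerase) was lower and 5 were not called, with a median of 0.70 against -0.02 over all genes. Each was read at its brightest cluster, which was not checked to lie at the gene. Some of the counted values may therefore not be the gene's own. Among all genes with a symbol, 23.6% were higher and 19.5% lower. Without EMT6.5 tumours 1 and 3 the counts were 44 higher and 1 lower. The largest differences were those of Polr1b, a subunit of RNA polymerase I (1.71), the ribosome assembly genes Rrp9 (1.57) and Bop1 (1.41), Shmt2 of mitochondrial folate metabolism (1.29) and Odc1, which makes polyamines (1.26). Polr1b had signals of 8.55 to 8.90 in the EO771 pair and 6.75 to 7.38 in the 4T1 pair. The lists were chosen with results of these data known and are described by counts, with no test of a list.

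Counts of these target genes in other comparisons are given beside the Myc difference. A part of Myc in them was not tested. In 4T1.2, where Myc was higher than in 67NR, 3 of 50 target genes were higher and 5 lower, against 9.78% and 11% of genes. Odc1 was higher by 0.74 (adjusted p = 0.00051) and Nolc1, a nucleolar protein gene, lower by a log2 difference of -1.08 (adjusted p = 5.6e-06). The count of lower genes was 1 without any one of the 67NR replicates or without 4T1.2 replicate 3, and 3 without 4T1.2 replicate 1. The count of higher genes was 1 without 67NR replicate 1 or 2. EMT6.5 tumours were not called apart from 67NR in Myc. Against 4T1.2, Myc in EMT6.5 was lower (log2 difference -0.84, adjusted p = 0.0014). The difference was -0.72 without EMT6.5 tumours 1 and 3, with 1 EMT6.5 tumour left. In EMT6.5, 9 of 50 targets were higher and 2 lower than in 67NR, where 11.6% of genes were higher and 9.88% lower. Against 4T1.2, 13 were higher in EMT6.5 and none was lower, where 11.2% of genes were higher and 8.48% lower.

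**Figure D4:**
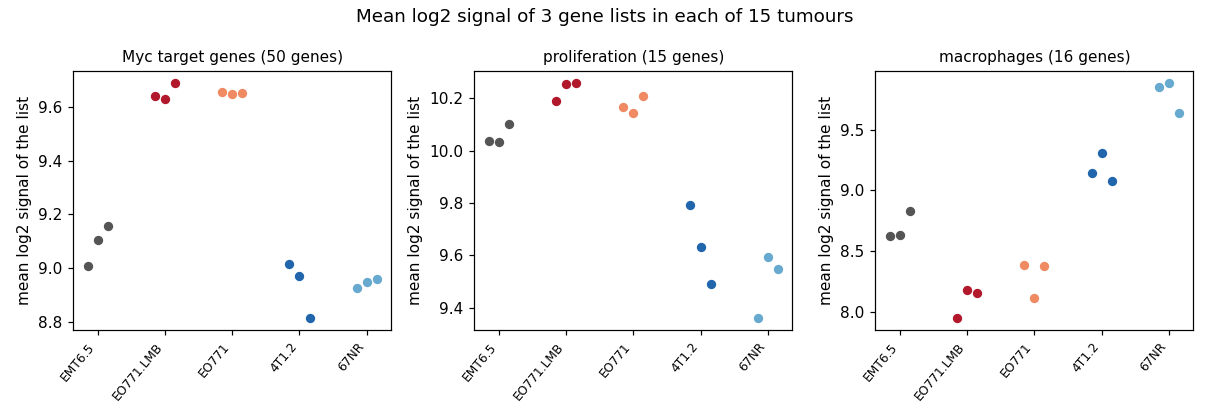
Mean log2 signal of 50 Myc target genes, 15 proliferation genes and 16 macrophage genes in each of 15 tumours. Target and proliferation means are high, and macrophage means low, in EO771.LMB and EO771.

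Other cell types and cell division moved with the same comparison. Of 15 proliferation genes, 11 were higher in the EO771 pair and 1 was lower (median 0.79), and the list's mean signal was 10.15 to 10.26 in EO771 pair tumours and 9.36 to 9.79 in 4T1 pair tumours. Of 16 macrophage genes, 14 were lower and none higher (median -1.14), with means of 7.95 to 8.38 against 9.08 to 9.89. Of 14 fibroblast genes, 10 were lower and 1 higher. Over all genes with a symbol, 23.6% were higher and 19.5% lower. Cd163 and Csf1r, which mark macrophages, had means of 5.51 and 7.34 in EO771.LMB and 5.89 and 7.76 in EO771, against 8.76 and 9.72 in 4T1.2 and 9.95 and 10.46 in 67NR. Between 4T1.2 and 67NR, 8 of 16 macrophage genes were lower and none higher, and 7 of 14 fibroblast genes were higher and 2 lower. There, 9.78% of genes were higher and 11% lower. The part of these cell types and of cell division in the results on the members and on the pathway lists, PI3K subunits included, was not tested.

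Around Myc, 8 of 20 network genes were higher in the EO771 pair and 1 was lower, with Myc itself among the 8, and 2 were lower without 67NR replicate 3, EO771.LMB replicate 2 or EO771 replicate 2. The shares over all genes with a symbol were 23.6% higher and 19.5% lower. Mga (1.04) and Mxi1 (0.81), whose proteins pair with Max in place of Myc, were higher, as was Huwe1 (0.76), a ubiquitin ligase. Mxd4 (-0.85), another partner of Max, was lower. Max itself was higher in 4T1.2 than in 67NR by 0.59 (adjusted p = 0.0086), with 11.93 to 12.10 against 11.23 to 11.68, as was Aurka (0.54, adjusted p = 0.019), a mitotic kinase.

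Upstream of Braf, 9 of 21 genes of Ras proteins and their exchange factors were higher in the EO771 pair and 4 were lower. In this comparison, 23.6% of genes with a symbol were higher and 19.5% lower. The listed genes called included the exchange factors Rasgrp3 (-1.05) and Rasgrp1 (-0.50), the adaptor Shc1 (-0.49) and the scaffold Shoc2 (0.48). Among 13 genes of Ras GTPase-activating proteins and Spreds, which restrain Ras as Nf1 does, 4 were higher and 5 lower. Rasa1 was lower by a log2 difference of -0.82, with 10.55 to 10.84 in the EO771 pair against 11.30 to 11.64 in the 4T1 pair, and Spred3 (0.66) and Spred1 (0.42) were higher. In 4T1.2, Fntb (1.31), a subunit of the enzyme that attaches the lipid anchor of Ras, and the exchange factor Sos2 (1.23) were higher than in 67NR, and Rasa3 (-0.75) was lower.

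Downstream, 7 of 16 genes of Raf, MEK, ERK and scaffolds were higher in the EO771 pair and 3 were lower. Of all genes with a symbol, 23.6% were higher and 19.5% lower. Mapk1ip1l (1.83), the scaffold gene Ksr2 (1.17) and Pebp1 (1.14), which encodes an inhibitor of Raf, were higher. As for all list genes, the Pebp1 cluster was not checked to lie at the gene. Its values may not be the gene's own. The ERK-activated kinase gene Rps6ka2 was lower (-1.61), as was Mapk3 (-0.63), which encodes ERK1. In 4T1.2 tumours, 5 of the 16 were lower than in 67NR and none was higher, among them Mapk3 (-0.91), Rps6ka2 (-0.83), Pebp1 (-0.47) and Braf itself. Between these types, 9.78% of genes were higher and 11% lower. Genes that ERK induces went both ways between the pairs, with 9 of 20 higher and 5 lower. Ier3 (3.06), an early response gene, and Dusp4 (2.22), an ERK phosphatase, were higher and Spry1 (-2.29), a feedback inhibitor of receptor signalling, was lower. In 4T1.2, 8 of these 20, Myc included, were higher than in 67NR and 2 lower, with Dusp4 at 0.88 and Spry1 at -1.16, and the counts were 5 and 1 without 67NR replicate 2.

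**Figure D5:**
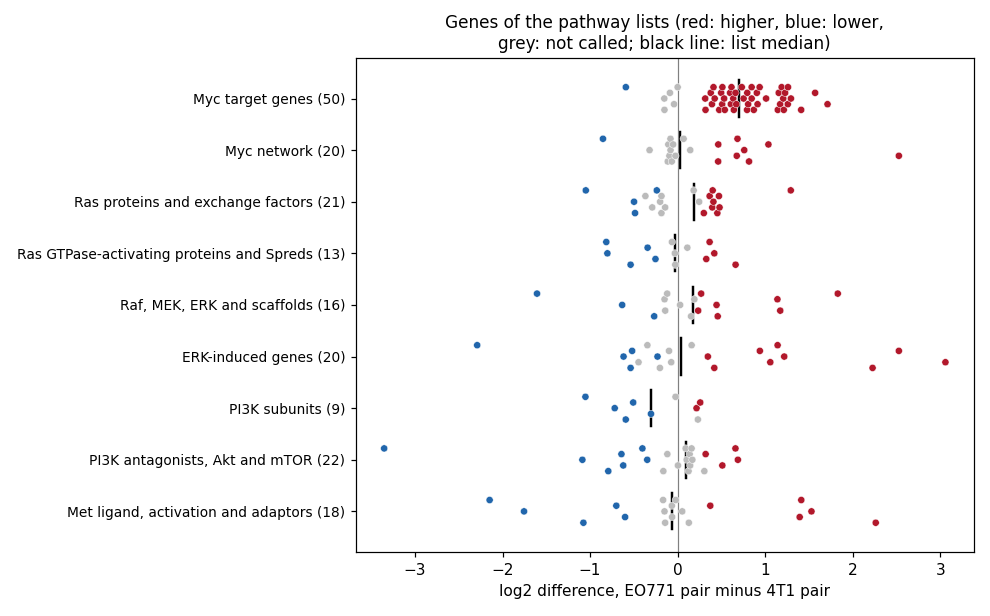
Log2 difference, EO771 pair minus 4T1 pair, of each gene of 9 pathway lists (number of genes in brackets), coloured by call, with the list's median as a black line. Genes are read at their brightest cluster, which was not checked to lie at the gene. The Myc target genes lie mostly above 0 (44 of 50 called higher), while the other lists hold genes on both sides.

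Among PI3K antagonists, Akt and mTOR genes, 4 of 22 were higher in the EO771 pair and 7 lower, against 23.6% and 19.5% of genes. Irs1, which carries insulin receptor signals to PI3K, had signals of 4.42 to 5.14 in the EO771 pair and 7.37 to 8.78 in the 4T1 pair (log2 difference -3.35, standard error 0.12, adjusted p = 1.9e-11). It had 9.41, 9.44 and 9.60 in EMT6.5 tumours. Irs2 (-0.79) and Depdc6 (-1.09), the older symbol of the mTOR inhibitor gene Deptor, were lower, and Inpp4b (0.69), a phosphoinositide phosphatase, was higher. In 4T1.2, 2 of the 22 were higher than in 67NR and 4 lower, against 9.78% and 11% of genes. Rictor (0.80, under its older symbol 4921505C17Rik), a subunit of an mTOR complex, was higher, and Inpp4b (-0.99), Irs1 (-0.98), Akt2 (-0.76) and Tsc2 (-0.67), which restrains mTOR, were lower. The Akt2 cluster, too, was not checked to lie at the gene, so its value may not be the gene's own.

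Around Met, 5 of 18 genes were higher in the EO771 pair, Met included, and 5 were lower, against 23.6% and 19.5% of all genes. Gab1, the adaptor that links Met to PI3K and ERK, had signals of 9.77 to 10.99 in the EO771 pair, against 6.99 to 7.39 in 4T1.2 and 9.63 to 9.97 in 67NR (EO771 pair minus 4T1 pair 2.26, adjusted p = 7.6e-08; 4T1.2 minus 67NR -2.59, adjusted p = 2.9e-06). The protease St14 (1.53), which activates the ligand, and Mst1 (1.41), the ligand of a related receptor, were higher, while the protease inhibitor Spint2 (-2.15) and the integrin gene Itgb4 (-1.75) were lower. In 4T1.2, the protease inhibitor gene Spint1 (2.46) and Plau (1.44), the urokinase gene, were higher than in 67NR. The ligand Hgf, named after its values were seen, had 8.10, 8.46 and 8.27 in EMT6.5 tumours, against 6.23 to 6.58 in the 4T1 pair and 5.08 to 5.67 in the EO771 pair.

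Genes whose pattern over the 15 tumours was most like a member's were sought among the 10802 genes other than the member (10803 for Pik3ca) whose type means span at least 0.5. These correlations are descriptions, since tumours of a type share their level. For Myc they were Snx24 (Pearson's r 0.989), Smg1 (0.985) and Smek2 (0.984), and Nbea ran most opposite (-0.988). For Met they were Mlkl (0.982), Cd44 and Slc1a5 (0.980 each), opposite to Camk2n1 (-0.988). For Braf they were Lrrk2 (0.985), Tbcb (0.983) and E2f6 (0.977), opposite to Vav3 (-0.970). Pik3ca was most like Lrp6 (0.947), Zfp398 (0.922) and Usp9x (0.917), opposite to Lasp1 (-0.914), and Nras was most like Cbx5 (0.860), Snrnp70 (0.855) and Mfhas1 (0.852), opposite to the cluster named ENSMUSG00000073242 (-0.891). Between members themselves, r was highest for Myc and Met (0.81), Braf and Pik3ca (0.76), Braf and Met (0.72) and Myc and Pik3ca (0.71). After the type means were removed it was -0.06 for Myc and Met and -0.50 for Braf and Met, but 0.66 for Braf and Pik3ca and 0.53 for Myc and Pik3ca.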

How the data were processed

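For each of 15 tumours the authors deposited log2 signals, 35556 per array, 3 per type, which the labels number by mouse. Per the methods the summaries came from GCRMA, but RMA and Partek 6.6 are listed in the submitters' processing notes, which leaves the algorithm unsettled. The values were used as deposited, and a workbook sheet holds the same ones (differences in 0 of 533340). The 30 other per-sample columns found there went unused.

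In R 4.3.3 with limma 3.58.1, all 15 tumours entered a single linear model that had no term but tumour type. Adjustment (Benjamini-Hochberg) ran over all clusters, with 0.05 as the threshold. The steps were tested on simulated data. A gene was represented by its brightest cluster, and for list genes it was not checked that this cluster lies at the gene. Of 318 genes in 19 lists, 317 were measured, 18 under an older symbol. The members and lists were chosen with earlier results of these data known. Named genes are the members, up to 5 called genes of each list with the largest differences, and for each member that differed among types the 3 genes of highest r and 1 of lowest r. Promoter windows are RefSeq's (GRCm38.p6). Members' accessions matched RefSeq symbols for 7 of 7.

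Alternatives were the workbook values, quantile normalization, one-way analysis of variance, median centring, a filter that kept clusters brighter than the median, a robust prior with an intensity trend, fits of only the groups compared, an unadjusted p, the mean of a gene's clusters, Spearman's rho, the mouse number as a block and each tumour left out. Leaving out EMT6.5 tumours 1 and 3 together was added after seeing the data, and leaves 1 EMT6.5 tumour. Some genes of the pathway lists are counted but not reported singly here.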

Additional observations from a re-analysis of the deposited data

How the results depend on the processing

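No called difference of a member turned its direction under any alternative run. The calls of Myc and Met between the pairs, and of Myc between 4T1.2 and 67NR, were kept under all of them. Nras between the pairs was not called with quantile normalization (0.28, adjusted p = 0.15), one-way analysis of variance (0.40, adjusted p = 0.077), only the groups compared or without EMT6.5 tumours 1 and 3 (0.40, adjusted p = 0.054 each), and ran from 0.28 to 0.51 with tumours left out. Pik3ca gave 0.14 (adjusted p = 0.22) with quantile normalization and 0.21 to 0.31 with tumours left out, and 3 members rather than 5 were called with quantile normalization and 3 to 5 with tumours left out. Nf1 was called after centring (0.18, adjusted p = 0.046). Between 4T1.2 and 67NR, Braf was not called over only the groups compared (-0.37, adjusted p = 0.056), which left 1 member called, and an unadjusted p called 5, adding Nras (-0.51), Nf1 (0.23) and Met (0.29). With tumours left out Nras ran from -0.74 to -0.38 and Met from 0.25 to 0.33. The difference between the pairs' changes called 1 member above the median signal (Myc 0.68, adjusted p = 0.044), 1 with one-way analysis of variance (Braf -0.32, adjusted p = 0.015), 1 with gene means (Myc 0.68, adjusted p = 0.042), 2 at an unadjusted p (Myc 0.68 and Braf -0.32), and 0 to 1 with tumours left out (Myc 0.55 to 0.81). Over the 5 types, F was 4.19 for Nras with one-way analysis of variance (adjusted p = 0.07) and 2.95 to 8.44 with tumours left out. For Pik3ca it was 3.87 with quantile normalization (adjusted p = 0.059). Without EMT6.5 tumours 1 and 3, with 1 EMT6.5 tumour left, F of Pik3ca was 3.68. The median likeness was 0.925 with Spearman's rho and 0.98 with Pearson's r. The cause of these changes was not tested. Whether the mouse numbers pair the tumours cannot be told from these values. Deviations of same-numbered tumours correlated at -0.17 to 0.15 (median 0.02), and those of differently numbered tumours at -0.16 to 0.21 (median -0.001). Of 15 tumours, 8 correlated best with their own number among 3 numbers. With the number as a replicate block, Nras between 4T1.2 and 67NR was called (-0.51, adjusted p = 0.045), 3 members rather than 2. Fitting only the groups compared does not apply to the test over all types, and Mycn has no value among clusters above the median signal. Signal over background was not analysed here, so a low signal such as that of Mycn cannot show a small difference.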
